A study of Mus musculus with 6 samples.

Results

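The Hox genes are the 39 protein-coding homeobox genes of the mouse Hoxa, Hoxb, Hoxc and Hoxd clusters, taken by symbol from a table of 78409 genes. They were measured in 6 polyadenylated RNA libraries of nephrogenic stroma, the PDGFRa-sorted connective tissue cells of the nephron-forming zone, from pooled embryonic day 18 kidneys of wild-type CD1 mice. High adhesion cells (3 libraries) were cultured for 18 h on PDMS coated from a bovine fibronectin solution of 50000 ng/mL, and low adhesion cells (3 libraries) on PDMS coated from one of 500 ng/mL. Both substrates were used for each of 3 litters, so every value has a partner from the same pool of kidneys. All libraries shared the same sort, medium and culture time, and no uncultured stroma was analysed here.

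Hox genes encode transcription factors that bind DNA through a homeodomain and give cells a position along the body axis. Within a cluster the genes lie in the order in which they are used, from anterior (group 1) to posterior (group 13), and genes of equal number in different clusters are paralogues. In mouse kidney the Hox11 paralogues are needed for the ureteric bud to form, and the Hox10 paralogues for the cortical stroma to differentiate and integrate. Hox proteins bind many of their sites together with Pbx, Meis and Pknox proteins, the TALE homeodomain cofactors.

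The homeoboxes of the Hox10 and Hox11 genes are printed first because these are the groups with renal roles and because Hoxc10, Hoxa10 and Hoxd11 were among the 5 members of highest level per kilobase. The bases are 5′ to 3′ from the GENCODE M21 transcripts (build GRCm38), and capitals mark the positions at which the members of a group differ, 50 of 180 in the Hox10 group and 45 of 180 in the Hox11 group.
Hoxa10: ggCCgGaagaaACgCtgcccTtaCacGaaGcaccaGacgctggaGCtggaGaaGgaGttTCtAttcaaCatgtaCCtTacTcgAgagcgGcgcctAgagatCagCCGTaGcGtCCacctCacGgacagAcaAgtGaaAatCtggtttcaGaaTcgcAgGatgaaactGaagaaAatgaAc
Hoxc10: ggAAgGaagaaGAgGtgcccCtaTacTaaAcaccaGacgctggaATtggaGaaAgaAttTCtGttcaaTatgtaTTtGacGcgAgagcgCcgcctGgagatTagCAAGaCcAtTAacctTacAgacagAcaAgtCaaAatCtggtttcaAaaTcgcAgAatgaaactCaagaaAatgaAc
Hoxd10: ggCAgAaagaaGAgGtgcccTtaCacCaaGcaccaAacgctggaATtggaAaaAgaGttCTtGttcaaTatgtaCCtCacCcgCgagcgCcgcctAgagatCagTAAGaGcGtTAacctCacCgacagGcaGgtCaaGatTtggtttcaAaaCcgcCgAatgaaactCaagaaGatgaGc
Hoxa11: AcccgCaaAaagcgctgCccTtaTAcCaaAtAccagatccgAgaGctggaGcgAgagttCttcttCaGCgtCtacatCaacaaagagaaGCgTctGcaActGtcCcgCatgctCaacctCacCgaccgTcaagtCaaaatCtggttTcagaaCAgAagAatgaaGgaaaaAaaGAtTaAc
Hoxc11: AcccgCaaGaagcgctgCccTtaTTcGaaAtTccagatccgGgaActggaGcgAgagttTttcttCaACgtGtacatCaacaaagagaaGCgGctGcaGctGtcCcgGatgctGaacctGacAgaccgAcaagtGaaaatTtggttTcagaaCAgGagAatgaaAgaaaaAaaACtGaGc
Hoxd11: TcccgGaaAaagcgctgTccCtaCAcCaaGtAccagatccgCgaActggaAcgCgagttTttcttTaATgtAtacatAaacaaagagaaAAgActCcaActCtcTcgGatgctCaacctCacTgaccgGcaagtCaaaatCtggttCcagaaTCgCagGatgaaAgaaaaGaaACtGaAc
A homeobox was found in 39 of 39 members. Pairs of the same paralogue group had a median of 80.6% identical bases (67.2% to 93.9%, 42 pairs), against 60.6% (46.1% to 88.9%, 699 pairs) for pairs of different groups. Hoxc10 shared 80.6% of its homeobox bases with Hoxa10 and 82.8% with Hoxd10, in runs no longer than 16 bases. Over whole transcripts 2 pairs of Hox genes shared an exact run of at least 75 bases, Hoxd3 with Hoxd4 (388 bases) and Hoxc5 with Hoxc10 (168 bases). Deposited counts were fractional in at least 1 library for 16 of the 31 tested members, and in 6 of 6 libraries for Hoxd10 and Hoxd11, whose RefSeq spans overlap, so the split of reads between such genes is uncertain.

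Hox levels in the stroma were highest in groups 9 to 11 and much lower in groups 12 and 13. Levels are compared between genes as CPM (counts scaled to a common library size) per kilobase of exon in GENCODE M21, a scale that assumes reads along the whole transcript, which the labels do not state. Groups 9 to 13 held 63.4% of the summed level of all members, groups 5 to 8 held 24.8% and groups 1 to 4 held 11.9%. By single group, group 10 held 25.2% and group 11 held 23.96%, while group 13 held 0.910% and group 12 held 0.0257%. By cluster, Hoxc held 31.8%, Hoxd 30.0%, Hoxa 24.04% and Hoxb 14.2%. These shares use the exons of GENCODE's basic set and depend on that choice. With all annotated exons, an alternative chosen after seeing the data, groups 9 to 13 held 62.6% and group 10 held 32.1%, but group 11 held 13.6%, below the 15.7% of group 9. Hoxc then held 37.5%, Hoxa 28.3%, Hoxd 21.3% and Hoxb 12.98%, so that Hoxa passed Hoxd.

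**Figure D1:**
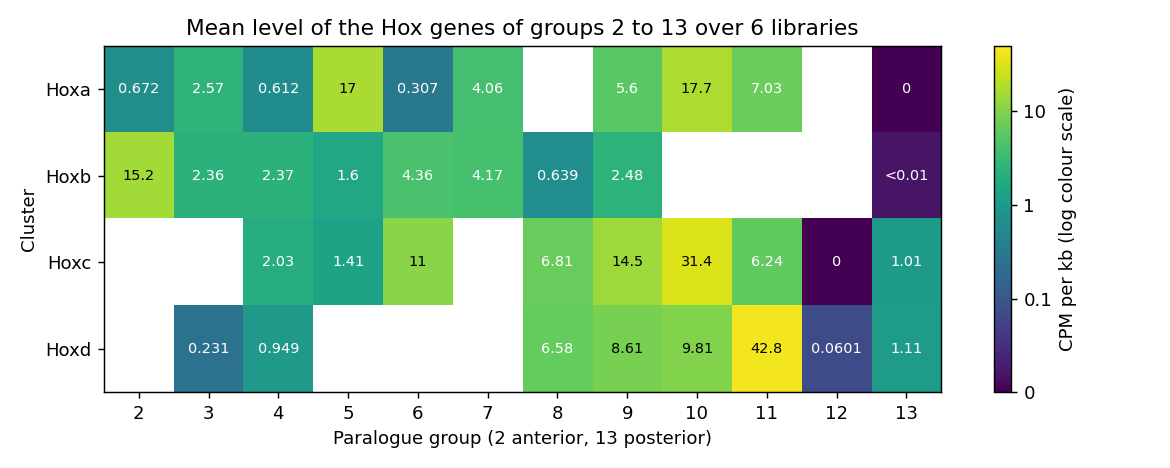
Mean level of the Hox genes of groups 2 to 13 over 6 libraries in CPM per kb, on a log colour scale, with clusters as rows and paralogue groups as columns (white: no such gene in mouse). The brightest cells are Hoxd11 (42.8) and Hoxc10 (31.4), groups 12 and 13 reach at most 1.11, and Hoxb2 (15.2) stands above the other members of groups 2 to 4. Lengths are those of the basic exon set.

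The members with the highest levels per kilobase were Hoxd11, Hoxc10, Hoxa10, Hoxa5, Hoxb2 and Hoxc9. Hoxc10 stood at 29.1 ± 0.564 CPM per kb in high adhesion and 33.7 ± 3.55 in low adhesion libraries (SD, n = 3 each). Hoxa10 stood at 17.3 ± 0.927 CPM per kb in high and 18.1 ± 0.861 in low adhesion libraries, and Hoxa5, which patterns the lung and cervical skeleton, at 16.5 ± 1.30 in high and 17.6 ± 1.05 in low adhesion libraries (SD, n = 3 each), so these neighbours in the order did not differ beyond their spread. Hoxd11 came first at 42.8 CPM per kb with the exons of GENCODE's basic set (1111 bases) and at rank 5 at 11.3 CPM per kb with all its annotated exons (4212 bases). Its rank therefore depends on which transcript these cells make, and with all annotated exons Hoxc10 ranked first.

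Anterior members were not silent. Hoxb2, a gene best known from hindbrain segments, averaged 15.2 CPM per kb, against at most 2.57 CPM per kb for any other member of groups 1 to 4, with Hoxa3 at the top of those. With all annotated exons Hoxb2 had 7.10 CPM per kb (rank 9) and was still the highest of these groups, ahead of Hoxb4 at 2.37. Hoxc6 (10.96 CPM per kb), Hoxd10 (9.81), Hoxd9 (8.61), Hoxa11 (7.03), Hoxc8 (6.81), Hoxd8 (6.58) and Hoxc11 (6.24) followed the leading members. Within the central groups Hoxa6 was nearly undetected, at 1 to 9 counts per library, between Hoxa5 and Hoxa7, which had 356.5 to 456.67 and 117 to 142 counts. The RefSeq span of Hoxa3 overlaps those of Hoxa4, Hoxa5 and Hoxa6, so the split of reads between Hoxa3 and these genes is uncertain.

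At the posterior end, Hoxa13 and Hoxc12 had no count in any library, which allows up to 3 counts, or 0.241 CPM in the shallowest library (a limit that covers counting error only). Hoxb13 had 1 count in a single library and Hoxd12 had 1 to 3 counts per library. Hoxc13 and Hoxd13, in contrast, had 27 to 47 and 32 to 42 counts. Hox13 genes are known for the distal limb, genital tubercle and tail end, and reads on Hoxc13 and Hoxd13 were found in all 6 libraries. At the anterior end Hoxb1 and Hoxd1 had at most 1 and 3 counts. In all, 8 members (Hoxa6, Hoxa13, Hoxb1, Hoxb13, Hoxc12, Hoxd1, Hoxd3 and Hoxd12) were too low to test. Hoxd3 was the nearest of them to a usable level, at 0.465, 0.562 and 0.738 CPM in high adhesion libraries against 1.07, 0.758 and 0.906 CPM in low adhesion libraries, and it shares sequence with Hoxd4.

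The summed level of all 39 members was lower on the high adhesion substrate in each litter. It was 442, 425 and 458 CPM in high adhesion libraries of litters 1, 2 and 3, against 473, 485 and 497 CPM in low adhesion libraries, so the groups did not overlap. The means were 442 ± 16.7 CPM in high and 485 ± 12.1 CPM in low adhesion libraries (SD, n = 3 each), a log2 ratio of -0.14. Hox transcripts were 0.0420% to 0.0460% of counts in high and 0.0472% to 0.0497% in low adhesion libraries. A sum over chosen members is given without a test.

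The cluster sums are given one by one, and a difference between clusters was not tested. Hoxc summed to 142, 131 and 142 CPM in high adhesion libraries, against 155, 165 and 159 CPM in low adhesion libraries. Hoxa summed to 135, 136 and 141 CPM in high adhesion libraries, against 144, 146 and 153 CPM in low adhesion libraries. For both clusters the groups did not overlap, with log2 ratios of -0.21 for Hoxc and -0.10 for Hoxa. Hoxd summed to 95.1, 104 and 112 CPM in high adhesion libraries, against 98.5, 122 and 117 CPM in low adhesion libraries, lower in 3 of 3 litters but with overlapping groups, and its log2 ratio of -0.12 became -0.06 without litter 2. Hoxb summed to 70.4, 53.8 and 63.6 CPM in high adhesion libraries, against 76.2, 53.0 and 68.4 CPM in low adhesion libraries, a log2 ratio of -0.07 (-0.05 without litter 1), and here the litters lay further apart than the substrates.

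**Figure D2:**
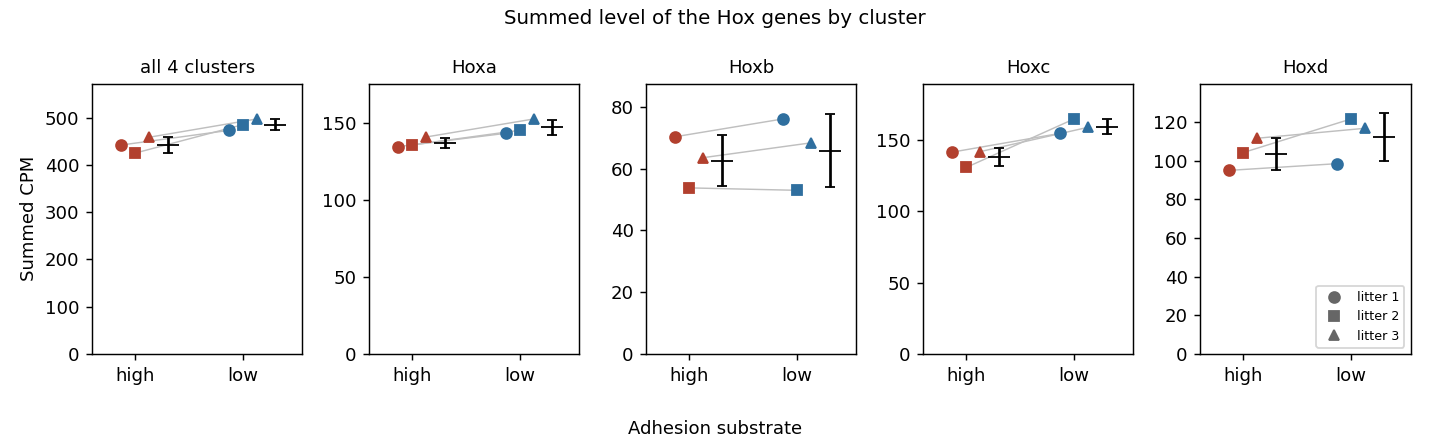
Summed CPM of all Hox genes and of each cluster on the high and low adhesion substrates, with 1 symbol per litter, grey lines joining libraries of a litter, and bars for mean and SD of 3 libraries. The sums over all members, Hoxa and Hoxc separate the substrates, while Hoxb is ordered by litter, with litter 2 at 53.8 and 53.0 CPM below the other two.

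Of the 31 tested members 5 fell and 0 rose at high adhesion by the quasi-likelihood test of edgeR, fitted with litter as a block (adjusted p under 0.05 over 14834 genes). That is 16.1% of the tested members, beside 9.55% called among all tested genes, 4.83% lower and 4.71% higher. The 5 were Hoxb2, Hoxc4, Hoxc9, Hoxc10 and Hoxd11, with 3 of 5 in the Hoxc cluster. Without the litter block 0 of 31 members passed, beside 36 of 14834 genes. Of the 31 members 4 had an unadjusted p under 0.05, beside 1359 of 14834 genes (lowest edgeR adjusted p = 0.308). DESeq2 with the block called 0 of 23 members with an adjusted value, beside 407 of 11095 genes. There 2 of 31 members had an unadjusted p under 0.05, beside 1277 of 14834 genes (lowest DESeq2 adjusted p = 0.377). Leaving out litter 1 left 3 calls (Hoxa3, Hoxc4 and Hoxc10), litter 2 left 1 (Hoxb2) and litter 3 left 1 (Hoxc9). No member was called in each of these 3 settings, which called 987 of 14832, 1557 of 15073 and 844 of 15001 genes.

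Hoxc4 (ENSMUSG00000075394, chromosome 15), an anterior trunk member, had the largest change among the called genes. It stood at 4.41, 4.26 and 4.06 CPM in high adhesion libraries of litters 1, 2 and 3, against 5.41, 7.36 and 5.81 CPM in low adhesion libraries. Every high adhesion library was below every low adhesion one, and the log2 fold change was -0.54 ± 0.14 (SE, n = 3 each, edgeR adjusted p = 0.0151). It passed in 6 of 10 alternative settings (adjusted p 0.00782 to 0.466).

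Hoxc10 (ENSMUSG00000022484, chromosome 15) is one of the Hox10 genes with a role in renal stroma. It stood at 56.7, 54.5 and 55.5 CPM in high adhesion libraries, against 57.1, 70.6 and 65.1 CPM in low adhesion libraries. The groups did not overlap, but the litter 1 libraries differed by less than 1 CPM, and the log2 fold change was -0.21 ± 0.06 (SE, n = 3 each, edgeR adjusted p = 0.0377, 0.00657 to 0.47 over the alternatives). Without litter 2 its log2 fold change was -0.12 (edgeR adjusted p = 0.261). Its paralogue Hoxa10 did not pass, at 51.6, 53.8 and 57.4 CPM in high adhesion libraries and 55.9, 54.6 and 59.8 CPM in low adhesion libraries (log2 fold change -0.06, edgeR adjusted p = 0.577). The third paralogue, Hoxd10, averaged 16.6 ± 2.63 CPM in high and 19.1 ± 4.12 CPM in low adhesion libraries (SD, n = 3 each) and did not pass (log2 fold change -0.20, edgeR adjusted p = 0.137). Whether the 3 paralogues differ from each other in their response was not tested.

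Hoxd11 (ENSMUSG00000042499, chromosome 2), which acts with its Hox11 paralogues in kidney formation, stood at 37.6, 45.1 and 50.3 CPM in high adhesion libraries, against 42.3, 56.5 and 53.5 CPM in low adhesion libraries. It was lower at high adhesion in 3 of 3 litters while the groups overlapped, with a log2 fold change of -0.19 ± 0.06 (SE, n = 3 each, edgeR adjusted p = 0.0478, 0.033 to 0.731 over the alternatives). Without litter 2 it was -0.13 (edgeR adjusted p = 0.282). Hoxa11 stood at 16.0 ± 2.50 CPM in high and 16.1 ± 0.766 CPM in low adhesion libraries (SD, n = 3 each, edgeR adjusted p = 0.954). Hoxc11 lay just outside the threshold, at 9.29, 11.6 and 13.1 CPM in high adhesion libraries against 12.1, 14.9 and 14.6 CPM in low adhesion libraries (log2 fold change -0.29, edgeR adjusted p = 0.0574).

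Hoxc9 (ENSMUSG00000036139, chromosome 15), of the thoracic trunk, stood at 35.8, 25.5 and 34.0 CPM in high adhesion libraries, against 40.9, 33.4 and 36.6 CPM in low adhesion libraries. Each litter's high adhesion library was the lower of its pair, and the groups overlapped through litter 2 (log2 fold change -0.22 ± 0.07, SE, n = 3 each, edgeR adjusted p = 0.0376, 0.0268 to 0.681 over the alternatives). Hoxb2 (ENSMUSG00000075588, chromosome 11) stood at 25.1, 22.6 and 20.6 CPM in high adhesion libraries, against 30.0, 23.97 and 26.3 CPM in low adhesion libraries (log2 fold change -0.23 ± 0.07, SE, n = 3 each, edgeR adjusted p = 0.0465, 0.0137 to 0.579 over the alternatives). Hoxb2 was likewise lower in 3 of 3 litters with overlapping groups.

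**Figure D3:**
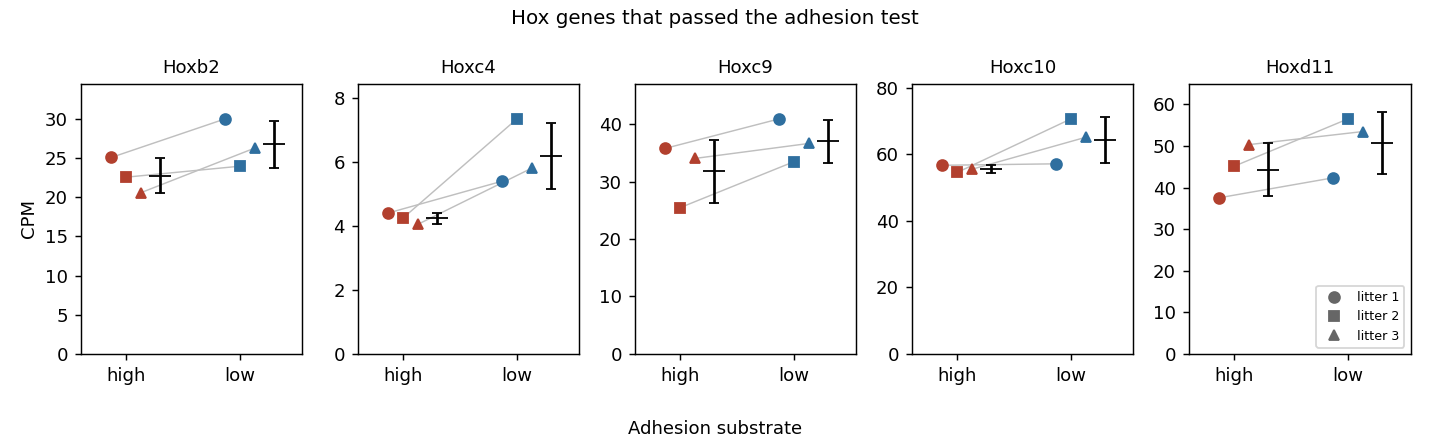
CPM of the 5 Hox genes that passed the adhesion test, on the high and low adhesion substrates, with 1 symbol per litter, grey lines joining libraries of a litter, and bars for mean and SD of 3 libraries. In each gene the 3 lines rise towards the low adhesion side, and the groups are apart for Hoxc4 and Hoxc10 only.

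Just outside the threshold with Hoxc11 were Hoxa3 and Hoxa9. Hoxa3, which patterns the neck organs, stood at 5.88, 5.38 and 6.05 CPM in high adhesion libraries, against 6.63, 7.28 and 8.68 CPM in low adhesion libraries (log2 fold change -0.38, edgeR adjusted p = 0.0573). Hoxa9 stood at 15.9, 16.9 and 16.7 CPM in high adhesion libraries, against 20.7, 19.5 and 18.6 CPM in low adhesion libraries (log2 fold change -0.25, edgeR adjusted p = 0.062). In both genes every high adhesion library was below every low adhesion one. The read split of Hoxa3 is uncertain, because its RefSeq span overlaps those of other Hoxa genes. With the test limited to genes of at least 5 CPM, all 3 passed. The count of members was then 8 of 22, with 0 higher, beside 1432 of 10202 genes.

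Most tested members leaned the same way by small amounts. The log2 fold change was below 0 in 22 of 31 members, or 71%, beside 50.4% of all tested genes, and the median was -0.10, beside 0.00 over all genes. An unadjusted p under 0.05 in the lower direction was reached by 10 members, beside 10.7% of all genes, and in the higher direction by 0. The high adhesion level was the lower one in 3 of 3 litters for 13 members (41.9%), beside 20.4% of all genes, and the higher one in 3 of 3 litters for 2 members, beside 20.9%. Groups did not overlap for 5 members that were lower (Hoxa3, Hoxa9, Hoxc4, Hoxc6 and Hoxc10), beside 7.67% of all genes, and for 1 that was higher, beside 7.95%.

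By cluster, the median log2 fold change was -0.21 for the 8 tested Hoxc members, -0.10 for the 9 of Hoxa, 0.00 for the 8 of Hoxb and 0.00 for the 6 of Hoxd. By position it was -0.23 for the 9 tested members of groups 1 to 4, -0.03 for the 10 of groups 5 to 8 and -0.20 for the 12 of groups 9 to 13. Of the 10 tested members of the central groups 0 were called, beside 9.55% of all tested genes. A difference between positions was not tested. Hoxa5 stood at 33.4, 28.6 and 30.7 CPM in high adhesion libraries, against 30.8, 33.8 and 34.5 CPM in low adhesion libraries, and did not pass (log2 fold change -0.10, edgeR adjusted p = 0.506). Hoxc6 stood at 15.9, 17.3 and 17.0 CPM in high adhesion libraries, against 17.4, 18.4 and 17.8 CPM in low adhesion libraries, and did not pass although the groups did not overlap (log2 fold change -0.09, edgeR adjusted p = 0.565). Hoxd8 stood at 18.0, 16.3 and 17.5 CPM in high adhesion libraries, against 15.6, 20.6 and 20.5 CPM in low adhesion libraries, with overlapping groups (log2 fold change -0.13, edgeR adjusted p = 0.48).

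Among the members above 0, Hoxd9 averaged 19.2 ± 1.53 CPM in high and 17.5 ± 1.87 CPM in low adhesion libraries (SD, n = 3 each, edgeR adjusted p = 0.386). Hoxb3 averaged 7.86 ± 1.04 CPM in high and 8.77 ± 1.87 CPM in low adhesion libraries (SD, n = 3 each, edgeR adjusted p = 0.493), and its log2 fold change was below 0. Hoxb7, whose regulatory sequence is widely used to mark ureteric epithelium, averaged 5.65 ± 0.780 CPM in high and 5.13 ± 0.771 CPM in low adhesion libraries (SD, n = 3 each, edgeR adjusted p = 0.644).

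**Figure D4:**
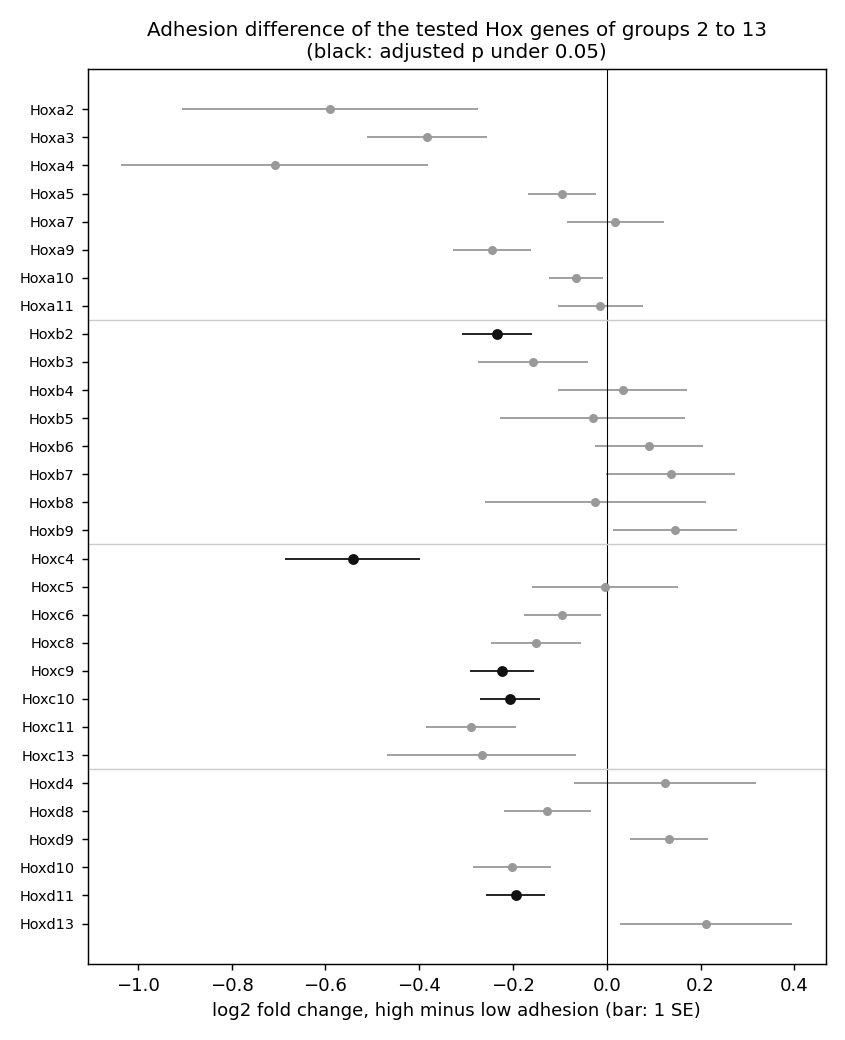
Log2 fold change, high minus low adhesion, of the tested Hox genes of groups 2 to 13 with 1 standard error, in cluster and paralogue order, black where the adjusted p was under 0.05. Of the points 22 lie below 0, and the 5 black points lie between -0.54 (Hoxc4) and -0.19 (Hoxd11).

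Hox levels also differed between litters. In an F-test of the litter terms of that edgeR fit 5 of 31 members differed between litters, or 16.1%, beside 17.9% of all tested genes, so Hox genes were called about as often as genes in general. The 5 were Hoxb6, Hoxb9, Hoxc9, Hoxd10 and Hoxd11, and they fell into 2 patterns. Hoxb9, a posterior thoracic gene, stood at 8.75, 3.93 and 7.38 CPM in high adhesion libraries of litters 1, 2 and 3, against 8.99, 2.88 and 6.34 CPM in low adhesion libraries (litter test, edgeR adjusted p = 4.13e-06). Litter 2 was far below the other litters on both substrates, and the same held in weaker form for Hoxb6, at 10.7, 5.94 and 9.89 CPM in high and 9.82, 6.60 and 8.46 CPM in low adhesion libraries (litter test, edgeR adjusted p = 0.00215), and for Hoxc9 (litter test, edgeR adjusted p = 0.00513).

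Hoxd10 and Hoxd11 were instead lowest in litter 1. Hoxd10 stood at 14.01, 19.3 and 16.4 CPM in high adhesion libraries of litters 1, 2 and 3, against 14.8, 22.98 and 19.5 CPM in low adhesion libraries (litter test, edgeR adjusted p = 0.000929). Hoxd11, given above, had a litter test adjusted p of 0.000947 in edgeR. The 2 genes have overlapping RefSeq spans and fractional counts in every library. They may share reads and are not taken as separate evidence. Without litter 2 the members called for litter were Hoxc11, Hoxd10 and Hoxd11, and without litter 1 they were Hoxb3, Hoxb6, Hoxb9 and Hoxc9.

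**Figure D5:**
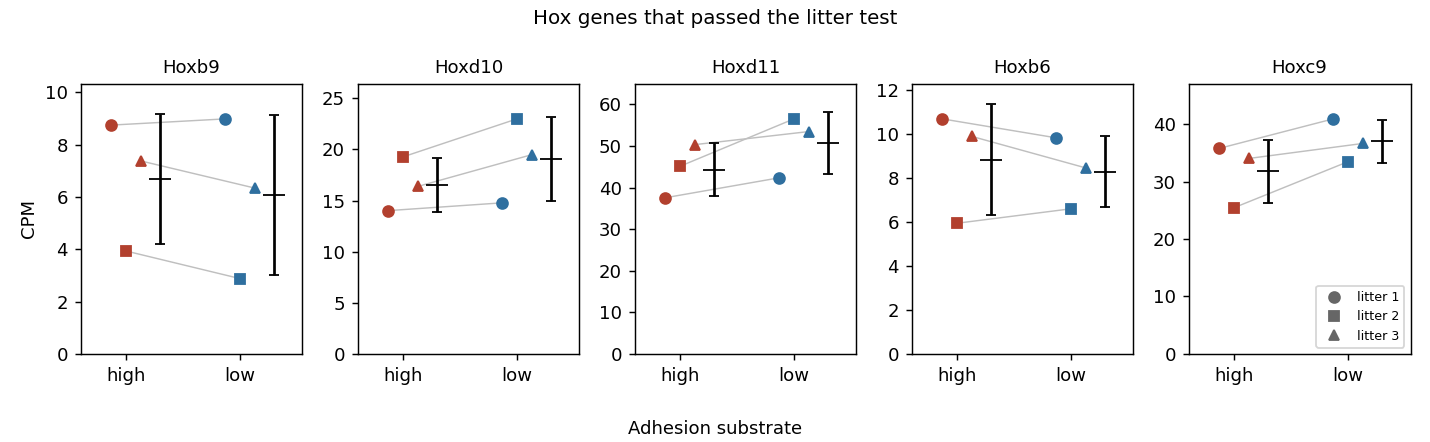
CPM of the 5 Hox genes that passed the litter test, on the high and low adhesion substrates, with 1 symbol per litter, grey lines joining libraries of a litter, and bars for mean and SD of 3 libraries. Litter 2 (squares) is lowest for Hoxb9, Hoxb6 and Hoxc9 and litter 1 (circles) is lowest for Hoxd10 and Hoxd11, on both substrates.

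The litter 2 pattern ran through the Hoxb cluster. Among low adhesion libraries litter 2 was the lowest for 8 of 8 tested Hoxb members, beside 35.9% of all tested genes, and among high adhesion libraries for 6 of 8, beside 37.2%. It was lowest on both substrates for 6 of 8 (Hoxb3, Hoxb5, Hoxb6, Hoxb7, Hoxb8 and Hoxb9), beside 20% of all genes, and for 10 of 31 members over the 4 clusters. Litter 1 was lowest on both substrates for 5 of 31 (Hoxa11, Hoxc6, Hoxc11, Hoxd10 and Hoxd11), beside 18%, and for 0 of 8 in Hoxb. This order was looked for after the values were seen, and neighbouring genes of a cluster are not independent. Litter 2 also had the lowest sum of the ureteric epithelium marker list, 509 CPM in its high and 345 CPM in its low adhesion library, against 762 to 926 and 451 to 640 CPM in the other litters. That sum rested mostly on the keratin gene Krt18, and 9 of the 15 listed genes were tested. The nephron progenitor sums of litter 2 were also the lowest (99.6 CPM in the high and 95.3 CPM in the low adhesion library). Its endothelial (102 and 90.8 CPM) and nephrogenic stroma sums (6896 and 6956 CPM) were the highest on both substrates, and litter 1 had the highest sum of the macrophage and leukocyte list (115 CPM on each substrate, against 45.8 to 61.1 CPM). The part of these cells in the litter differences was not tested.

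In a list of TALE homeodomain genes, 3 of 10 tested genes fell (beside 4.83% of all tested genes) and 0 rose, with a median log2 fold change of -0.12. The 10 include Tgif1 and Tgif2, which lie outside the Pbx, Meis and Pknox families of Hox cofactors. Their log2 fold changes were 0.06 and 0.05 (edgeR adjusted p = 0.540 and 0.706). Meis2 stood at 148, 158 and 164 CPM in high adhesion libraries, against 210, 196 and 216 CPM in low adhesion libraries. The groups did not overlap, and the log2 fold change was -0.40 ± 0.05 (SE, n = 3 each, edgeR adjusted p = 6.89e-07). Without the litter block Meis2 did not pass (edgeR adjusted p = 0.0582), and neither did Pbx3 or Meis1 (adjusted p = 0.385 and 0.51). Pbx3 averaged 28.9 ± 2.97 CPM in high and 35.8 ± 3.50 CPM in low adhesion libraries (SD, n = 3 each, edgeR adjusted p = 0.00252), without overlap. With litter 3 left out the edgeR adjusted p of Pbx3 was 0.05003, and DESeq2 gave it an adjusted p of 0.144. Meis1 averaged 45.5 ± 4.27 CPM in high and 55.7 ± 8.66 CPM in low adhesion libraries (SD, n = 3 each, edgeR adjusted p = 0.0141), but its litter 1 libraries were level at 46.8 and 46.6 CPM and it did not pass without litter 2 or without litter 3 (edgeR adjusted p = 0.113 and 0.202). DESeq2 called Meis2 only.

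Polycomb and Trithorax proteins keep Hox genes silent or active through histone marks. Of 24 tested genes of these complexes and CTCF, 1 rose, 1 fell and 22 did not pass. Beside this, 4.71% of all tested genes were called higher and 4.83% lower. The median log2 fold change of the 24 was 0.03. Cbx2, a reader of the Polycomb mark, stood at 15.9, 15.7 and 18.5 CPM in high adhesion libraries, against 14.3, 14.3 and 12.3 CPM in low adhesion libraries (log2 fold change 0.30, edgeR adjusted p = 0.0495). Bmi1, a ring finger subunit of the same repressive complex, stood at 38.1, 35.7 and 41.5 CPM in high adhesion libraries, against 45.7, 41.1 and 46.5 CPM in low adhesion libraries (log2 fold change -0.21, edgeR adjusted p = 0.0283). Neither passed in DESeq2 (adjusted p = 0.587 for Cbx2 and 0.421 for Bmi1). In edgeR Cbx2 did not pass without litter 3 (log2 fold change 0.15, adjusted p = 0.614), nor Bmi1 without litter 1 or without litter 3 (adjusted p = 0.200 and 0.100).

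Retinoic acid induces anterior Hox genes through its nuclear receptors. Of 16 tested receptor, enzyme and binding protein genes 2 rose and 1 fell, beside 4.71% and 4.83% of all tested genes. The receptor gene Rarb averaged 11.1 ± 1.33 CPM in high and 19.2 ± 1.78 CPM in low adhesion libraries (SD, n = 3 each), a log2 fold change of -0.80 ± 0.10 (SE, edgeR adjusted p = 3.22e-06), without overlap between groups, and it passed in 10 of 10 alternatives. Crabp2, a retinoic acid carrier of the cytoplasm, averaged 8.98 ± 1.66 CPM in high and 6.88 ± 1.12 CPM in low adhesion libraries (SD, n = 3 each, edgeR adjusted p = 0.0381). Rbp4, the retinol carrier of plasma, averaged 3.54 ± 0.201 CPM in high and 2.13 ± 0.976 CPM in low adhesion libraries (SD, n = 3 each, edgeR adjusted p = 0.0258). Crabp2 did not pass without litter 1 or litter 3 (edgeR adjusted p = 0.0664 and 0.371), nor Rbp4 without litter 2 or litter 3 (edgeR adjusted p = 0.161 and 0.159), and the log2 fold change of Rbp4, 0.74 over all litters, was 1.16 without litter 1. The synthesis gene Aldh1a2 and the degradation gene Cyp26b1 did not pass (edgeR adjusted p = 0.709 and 0.98).

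Genes that flank the Hox clusters were measured as neighbours outside them. Of 18 tested, 0 rose and 1 fell, beside 4.71% and 4.83% of all tested genes, with a median log2 fold change of -0.05. The 1 was Cbx5, a heterochromatin protein gene beside Hoxc, at 141 ± 13.1 CPM in high and 161 ± 8.42 CPM in low adhesion libraries (SD, n = 3 each, edgeR adjusted p = 0.00749). Cbx5 did not pass without litter 1 or litter 3 (edgeR adjusted p = 0.0901 and 0.167). Of 6 tested genes tied to Hox11 function in nephron progenitors 0 passed for adhesion, among them Wt1 and Gdnf (edgeR adjusted p = 0.392 and 0.522), while 3 of 6 (Six2, Itga8 and Wt1) passed the litter test, beside 17.9% of all tested genes. Related homeobox genes outside the clusters were mostly too low to test, with 2 of 13 tested (Meox1 and Meox2), 0 passed for adhesion and 4 (Cdx4, Gsx1, Mnx1 and Pdx1) without a count.

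Noncoding genes of the clusters did not pass either test, beside 9.55% of all tested genes called for adhesion and 17.9% for litter. With so few genes tested, the absence of calls lies near these shares. Of 10, 6 were tested, with adjusted p from 0.507 to 0.981 for adhesion and from 0.106 to 0.856 for litter in edgeR. Hoxa11os, the antisense partner of Hoxa11, averaged 10.2 ± 0.639 CPM in high and 10.5 ± 2.27 CPM in low adhesion libraries (SD, n = 3 each). Hotairm1, at the anterior end of Hoxa, averaged 7.95 ± 0.649 CPM in high and 8.29 ± 0.125 CPM in low adhesion libraries (SD, n = 3 each). The strand setting of the counting is not given in the sources used here. Whether reads of antisense genes and of their partners were kept apart is therefore not known. Hottip had no count, and Hotair had at most 3 counts per library.

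Promoter windows, 250 bases before to 50 after a start in RefSeq build GRCm38.p6, were at hand for 22 of the 39 members (24 windows). Those of Hoxc4 and Hoxd11 are shown as examples of genes that fell, each with a window at a protein-coding start. They were picked by name, and the other called members were not checked for such a start. Among the called members only Hoxc4 and Hoxd11 had a match, so a match in each shown window is a selected outcome. Capitals mark matches on either strand to TGACAG (bound by Meis and Pknox), TGATNNAT (Pbx with Hox) or AGGTCA (retinoic acid receptor half-site).
Hoxc4 promoter, chr15:103034145-103034444, plus strand: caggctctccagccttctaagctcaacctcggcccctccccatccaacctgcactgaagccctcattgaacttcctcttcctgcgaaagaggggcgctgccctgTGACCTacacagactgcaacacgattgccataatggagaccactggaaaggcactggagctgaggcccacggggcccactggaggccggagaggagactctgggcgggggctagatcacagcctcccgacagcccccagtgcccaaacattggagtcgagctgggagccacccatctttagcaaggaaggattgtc
Hoxd11 promoter, chr2:74682073-74682372, plus strand: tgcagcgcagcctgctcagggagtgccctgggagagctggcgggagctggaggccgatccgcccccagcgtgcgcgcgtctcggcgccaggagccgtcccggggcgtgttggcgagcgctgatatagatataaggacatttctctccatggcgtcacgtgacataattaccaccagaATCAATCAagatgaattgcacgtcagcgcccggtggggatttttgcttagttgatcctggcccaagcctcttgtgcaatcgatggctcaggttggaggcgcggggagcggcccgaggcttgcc
The Hoxc4 window held 1 AGGTCA and the Hoxd11 window 1 TGATNNAT. AGGTCA was in 7 of 24 Hox windows (29.2%), beside 16.3% of all 32851 windows, TGATNNAT in 4 of 24 (16.7%), beside 8.85%, and TGACAG in 2 of 24 (8.33%), beside 19.2%. These matches describe letters in the windows and were not tied to binding.

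The libraries held 12596249 to 13508257 counts, so 1 count stood for 0.0738 to 0.0803 CPM. All 12 markers of nephrogenic stroma were detected, Foxd1 at 170 ± 12.4 CPM in high and 204 ± 19.0 CPM in low adhesion libraries (SD, n = 3 each). Of the 12, 9 fell and 1 rose at high adhesion, beside 4.83% and 4.71% of all tested genes, with a median log2 fold change of -0.31. This list shares Meis1 and Meis2 with the TALE genes described above. The called members of the other lists are to be read beside the same shares. They were 3 higher and 1 lower of 9 tested ureteric markers, and 1 higher and 0 lower of 11 nephron progenitor markers. For endothelial markers they were 1 higher and 1 lower of 7, and for macrophage and leukocyte markers 1 higher and 1 lower of 12. For neural markers they were 2 higher and 0 lower of 3. The ureteric marker sum was 509 to 926 CPM in high and 345 to 640 CPM in low adhesion libraries and rested mostly on the keratin gene Krt18, whereas Wnt9b had no count and Epcam averaged 7.44 ± 0.579 CPM in high and 5.92 ± 0.426 CPM in low adhesion libraries (SD, n = 3 each). In such bulk libraries, fewer cells of a kind and less RNA per cell cannot be told apart, and the part of these marker changes in the Hox values was not tested.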

How the data were processed

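Polyadenylated RNA of 6 libraries was analysed. The tools named by the authors, per the submitters' processing notes, include fastp 0.24.0, STAR 2.7.11, SAMtools 1.22.1 and featureCounts of Subread 2.1.1 with build GRCm39, while the annotation release and multi-mapping setting were not given in the sources used here. Deposited by the authors were estimated counts per gene, some fractional, and CPM equal to those counts scaled by column total (largest difference 5.1e-11). Counts were rounded and fitted with edgeR 4.0.16 in R 4.3.3 (filterByExpr, 14834 genes kept, TMM factors 0.989 to 1.01, robust quasi-likelihood test), with limma-voom (limma 3.58.1) and DESeq2 1.42.0 as alternatives, with Benjamini-Hochberg adjustment across the whole set of tested genes. Fold changes are high minus low adhesion, and printed CPM use TMM-scaled library sizes. Litter was a block because the design text calls the samples litter-matched. The pairing check gave correlations of 0.388 to 0.606 within litters and -0.517 to -0.0761 between them. Each gene's group mean was taken off first. This makes values between litters negative on average where those within litters are positive. Replicates are separate litters of pooled kidneys. With the block, the adhesion p-values set the high minus low difference against its variation between litters. For each gene edgeR draws that variation towards a trend over all genes. The printed SE of a log2 fold change was computed from the same test. Neither the p-value nor this SE is therefore a gene's own spread over the litters. Only the fit without the block sets the high minus low difference against the whole spread between litters. Members and lists were chosen with earlier results of these data known. Full values are given for called members, the 3 of highest CPM per cluster, the 3 nearest the threshold, the 3 of lowest litter p, and up to 4 called genes per list. The other members, Six2, Itga8, Epcam, Krt18, Wnt9b, Aldh1a2 and Cyp26b1, and the noncoding genes described, were chosen after their values were seen. Exon lengths came from GENCODE M21 (GRCm38) by gene identifier. The fit was tested on simulated data. Some single-gene results are not reported here.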

Additional observations from a re-analysis of the deposited data

How the results depend on the processing

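The count of 5 called Hox genes (of 31, beside 1416 of 14834 genes) was the same 5 with RLE scaling, no filter or limma-voom. It became 0 of 31 without the replicate block (36 of 14834 genes) and 0 of 23 with DESeq2 (407 of 11095 genes). With library totals alone it was 2 of 31 (1379 of 14834 genes). Over genes of at least 5 CPM it was 8 of 22 (1432 of 10202 genes). When a litter was left out it was 1 to 3 (844 to 1557 genes). Without the replicate block 4 of 31 members had an unadjusted p under 0.05, beside 1359 of 14834 genes. The causes of these changes were not tested. In the 6 lists of Hox partners, regulators and neighbours 9 of 76 tested genes were called, beside 9.55% of all tested genes. The 9 became 1 without the replicate block, 2 with DESeq2 and 2 to 12 when a litter was left out. The 5 members called for litter became 3 to 7 when a litter was left out (1392 to 2628 of all genes, against 2655 with every litter). Signs of uncalled genes turned when a litter was left out, with log2 fold changes of -0.13 to 0.0637 for Hoxa11, -0.10 to 0.20 for Hoxb4, -0.34 to 0.28 for Hoxb5, -0.14 to 0.11 for Hoxb8 and -0.11 to 0.0585 for Hoxc5. The log2 ratio of the summed Hox level was -0.15 to -0.11 over the scaling, rounding and litter settings run, and no cluster sum changed sign in them. With all annotated exons as gene length, chosen after seeing the data, group 11 held 13.6% of the Hox level in place of 23.96%, and Hoxd 21.3% in place of 30.0%. With the block 2 residual degrees of freedom remained, and the biological coefficient of variation was 4.07%, against 10.7% without it. At this depth 8 members were too low to test.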
